A study of Sus scrofa with 30 samples.

Results

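This report compares porcine neonatal islet-like cell clusters (NICCs) kept in medium with fetuin-A with NICCs kept in medium with human serum albumin (HSA), both at the end of maturation. The members were chosen by their labels, treatment and day of culture, which gave 8 of the 24 libraries, 4 of Fet-A/d5 and 4 of HSA/d5. In the study, NICCs were isolated from the pancreas of piglets in the first weeks after birth and moved to maturation medium free of fetal calf serum, which itself contains fetuin-A. Fetuin-A or HSA was then present at the same concentration, so that HSA served as the control protein. Culture day 10 in the labels is maturation day 5 (d5), and culture day 6 is maturation day 1 (d1). Beside them, 4 libraries of HSA/d1 and 4 of HSA + SB/d5 are used, the latter with HSA and SB431542, an inhibitor of the TGF-β receptor kinase TGFBR1. The clusters are a mixture of endocrine, exocrine, ductal and connective tissue cells, and the study used German Landrace and Landrace-Yorkshire piglets of more than 1 age. For the genes changed by fetuin-A at d5, the paper gives animals of a younger and an older age in equal number. The labels assign no library to a preparation, a breed or an age.

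Fetuin-A, encoded by AHSG, is a glycoprotein that the liver secretes into plasma, is abundant before birth, and binds calcium, fatty acids and ligands of the TGF-β family. Neonatal beta cells are still immature: they gain hormone processing enzymes, exocytosis proteins and nutrient sensors over the time after birth, while part of them still divides. TGF-β and activin ligands act through serine/threonine kinase receptors on SMAD2 and SMAD3, which control genes of matrix, growth arrest and differentiation. AHSG itself had 7 reads in all 8 libraries together, so the gene was not tested. Whether this reflects low expression in the cultures is not known, since a low count alone does not show it. MCM5, for one, had 0 reads in these libraries, where MCM7 of the same helicase had 19690.

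RNA was measured by strand-specific RNAseq of polyadenylated RNA, and the deposited values are reads counted per gene. Total counts ranged from 19095896 to 22274149 in HSA/d5 and from 19758438 to 22825355 in Fet-A/d5, so the ranges of both groups overlapped. Levels are given as CPM, counts scaled to the library's total after TMM normalisation, in the order of replicates 1 to 4, and they are not comparable between genes, whose lengths differ. Each of 14842 genes was tested by quasi-likelihood in edgeR, and adjusted p-values follow Benjamini and Hochberg over all of them. A gene is said to have risen or fallen where its log2 fold change was beyond 1 in size and its adjusted p was below 0.05. Beside it stands glmTreat, an edgeR test of whether a change itself exceeds 1 on the log2 scale, which 39 of the 94 genes named here with a rise or fall passed. Ranges of adjusted p over the alternatives leave glmTreat out. In the main fit, the p-values measure the spread between libraries within a condition, estimated over all 24 libraries. Those include conditions labelled with LDN, which are not compared here. The unblocked test takes the libraries as independent. Libraries with the same replicate number, taken from the order of library numbers, however varied together. A fit with that number as a block is given where it changed the call of a named gene. List counts that the block changed stand beside the list or under the dependence on the processing.

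Some of these 8 libraries stood apart from the others of their group. HSA/d5 replicate 3 had a summed level of mesenchymal markers of 1836 CPM, against 6215 to 7534 CPM in the other HSA/d5 libraries, and the highest level of CXCL8 in that group, at 503 CPM against 54.1 to 131 CPM. Fet-A/d5 replicate 3 had the highest level of GCG in its group, at 8307 CPM against 974 to 3977 CPM. The summed markers of neural and Schwann cells stood highest in replicate 4 of both groups, at 1912 CPM in HSA/d5 against 422 to 656 CPM, and at 2222 CPM in Fet-A/d5 against 538 to 574 CPM. Where a named gene gains or loses its call without 1 of the 8 libraries, the values without it are given.

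More genes fell than rose with fetuin-A. Of the 14842 genes tested, 933 fell (6.29%) and 273 rose (1.84%), and the median log2 fold change over all genes was 0.00. With no threshold on the fold change, the adjusted p was below 0.05 for 2572 lower genes (17.3%) and 2712 higher genes (18.3%). At an unadjusted p below 0.05 in edgeR, 3243 of the 14842 genes were lower and 3443 higher. These are the background for the unadjusted counts of the lists below. With the replicate block, 1110 genes fell (7.48%) and 333 rose (2.24%). All 4 Fet-A/d5 libraries lay below all 4 HSA/d5 libraries for 1975 genes (13.3%) and above them for 2255 (15.2%). Without HSA/d5 replicate 3 the test gave 1037 lower and 389 higher genes, and without Fet-A/d5 replicate 3 it gave 1056 and 314. With glmTreat 227 genes were lower and 29 higher. A symbol could be assigned to 1006 of the 1206 genes that rose or fell.

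**Figure D1:**
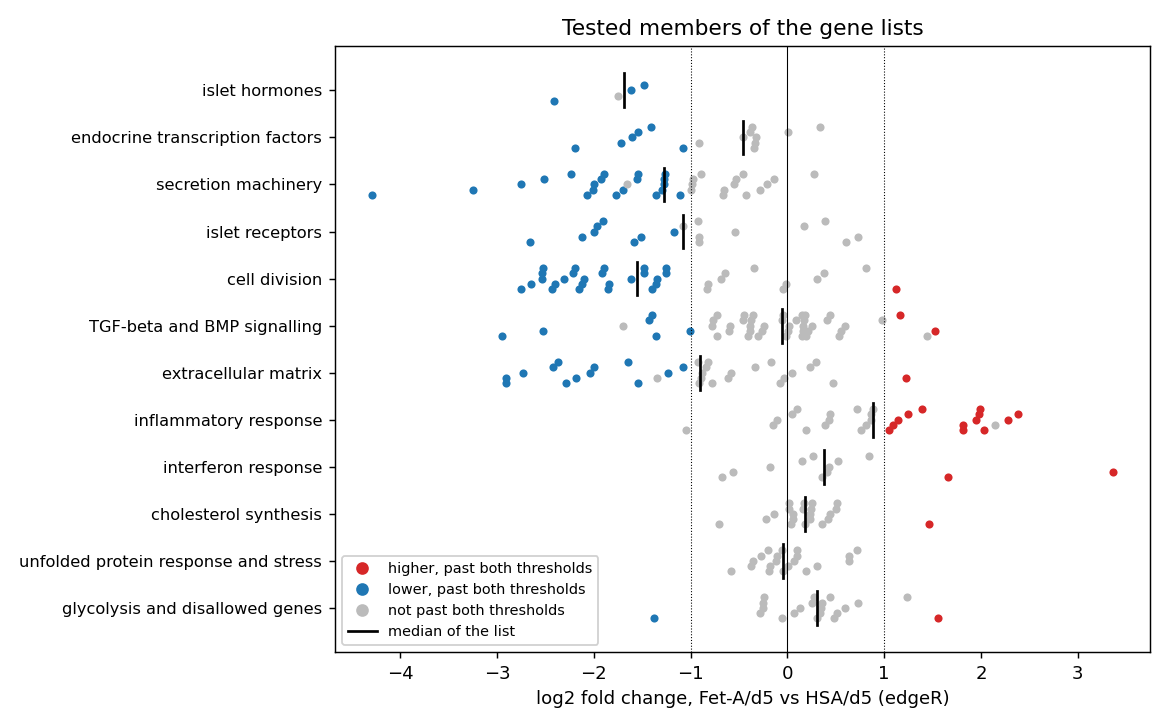
Each point is the log2 fold change of a gene in Fet-A/d5 vs HSA/d5 (4 libraries each) from edgeR, on the x axis, for the tested members of 12 gene lists on the y axis. Red and blue points passed both thresholds upwards and downwards, the dotted lines mark a log2 fold change of -1 and 1, and black bars are list medians, which lie at -1.27 for secretion machinery, -1.55 for cell division and 0.88 for the inflammatory response.

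Of 4 tested hormones, GCG, SST and PPY fell with fetuin-A. GCG, which encodes glucagon of alpha cells, stood at 24320, 14720, 15710 and 23050 CPM in HSA/d5 and at 1363, 974, 8307 and 3977 CPM in Fet-A/d5. The groups did not overlap, and Fet-A/d5 replicates 1 and 2 were far lower than replicates 3 and 4. GCG fell by 2.41 on the log2 scale (SE 0.45, edgeR adjusted p = 0.000329), a 5.32-fold lower level. SST, encoding somatostatin of delta cells, was at 2831, 2909, 2547 and 2172 CPM in HSA/d5 and at 798, 538, 1425 and 641 CPM in Fet-A/d5. Here too the groups were separate, with little spread in HSA/d5, and SST fell by 1.62 (SE 0.22, edgeR adjusted p = 1.26e-05). PPY, the pancreatic polypeptide gene, stood at 1272, 404, 728 and 1035 CPM and 307, 95.5, 508 and 323 CPM. Fet-A/d5 replicate 3 overlapped with HSA/d5, and PPY fell by 1.48 (SE 0.47, edgeR adjusted p = 0.0169). The call for PPY was lost without HSA/d5 replicate 1 (edgeR adjusted p = 0.0628), without Fet-A/d5 replicate 2 (0.0543) and in a fit of only these 8 libraries (0.0607), and the adjusted p ranged from 1.04e-06 to 0.0628 over the alternatives. In bulk RNA, fewer cells of a type and less RNA per cell cannot be told apart.

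Insulin did not pass the unblocked test. INS was at 1447, 413, 2684 and 5651 CPM in HSA/d5 and at 263, 135, 1752 and 883 CPM in Fet-A/d5. The groups overlapped, with replicate 2 the lowest in both, and in 4 of 4 same-numbered pairs the Fet-A/d5 library was the lower. Without a block the log2 fold change was -1.75 (SE 0.82, edgeR adjusted p = 0.102). With the replicate block it was -1.79 (edgeR adjusted p = 0.000129), past both thresholds. Without Fet-A/d5 replicate 3 and with no block it was -2.58 (edgeR adjusted p = 0.0297), and without HSA/d5 replicate 4 it was -0.998 (0.385). These 2 values were the extremes over the alternatives, across which the adjusted p ranged from 0.000129 to 0.385. Of the 6 listed hormones 4 were tested, of which 3 fell, against 6.29% of all genes, and their median log2 fold change was -1.69. Without Fet-A/d5 replicate 3 all 4 fell, with a median of -2.28, and without HSA/d5 replicate 1 or Fet-A/d5 replicate 2 the count was 2. With glmTreat 1 of these 4 passed.

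Maturation in HSA alone gives the course of these hormones without fetuin-A. From HSA/d1 to HSA/d5, the log2 fold change was 2.40 for GCG (edgeR adjusted p = 0.000424), 2.10 for SST (2.69e-06), 2.33 for PPY (0.000927) and 1.75 for INS (0.0981). This comparison shares the HSA/d5 libraries with that of fetuin-A, so both sets of values are given side by side only. GCG in HSA/d1 was at 3441, 2947, 3787 and 4550 CPM, and Fet-A/d5 replicates 1 and 2 lay below all 4 of these, replicate 3 above them.

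Transcription factors of endocrine cells fell in part. Of 15 tested of 19 listed, 6 fell, with a median log2 fold change of -0.46, against 6.29% of all genes. Leaving out each library in turn gave 4 to 7, with 4 without HSA/d5 replicate 3 or 4 and without Fet-A/d5 replicate 1, 2 or 4, 7 without HSA/d5 replicate 2, and 7 and a median of -0.99 without Fet-A/d5 replicate 3. NEUROD1, a basic helix-loop-helix factor that activates the insulin gene, was at 105, 83.5, 108 and 143 CPM in HSA/d5 and at 22.8, 12.1, 63.2 and 35.8 CPM in Fet-A/d5. The groups were separate, and it fell by 1.71 (SE 0.36, edgeR adjusted p = 0.000853). ISL1, a LIM homeodomain factor of all islet endocrine cells, fell by 1.55 (edgeR adjusted p = 0.00171) and PAX6, which activates hormone genes, by 1.41 (0.00633), both without overlap. PAX4, a factor of beta and delta cell fate, fell to a 3.04-fold lower level (edgeR adjusted p = 0.00419), though HSA/d5 replicate 3 at 0.794 CPM lay within the Fet-A/d5 values.

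The call of MAFA changed with single libraries. MAFA, a factor of mature beta cells, stood at 1.53, 0.614, 2.87 and 5.84 CPM in HSA/d5 and at 0.537, 0.047, 0.957 and 0.827 CPM in Fet-A/d5. Levels were low and overlapped, and MAFA fell by 2.19 (SE 0.82, edgeR adjusted p = 0.0432). Its call was lost without HSA/d5 replicate 3 or 4 (edgeR adjusted p = 0.0631 and 0.19) and without Fet-A/d5 replicate 1, 2 or 4 (0.0864, 0.121 and 0.0573). It was also lost with no filter on low counts (edgeR adjusted p = 0.0528) and in a fit of only these 8 libraries (0.0762), within a range of 9.66e-06 to 0.19 over the alternatives. With glmTreat none of the 15 factors passed, where 8 were lower at an unadjusted p below 0.05 in the standard edgeR test and DESeq2 called 6.

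Other factors of islet identity were not past the thresholds. NKX6-1, required for beta cell fate, was at 76.1, 53.3, 66.9 and 104 CPM in HSA/d5 and at 49.7, 52.5, 73.5 and 63.3 CPM in Fet-A/d5. The values overlapped widely, and the log2 fold change was -0.33 (SE 0.22, edgeR adjusted p = 0.257). For NKX2-2 it was -0.34 (edgeR adjusted p = 0.188) and for RFX6 -0.33 (0.526), both factors of endocrine differentiation. Without Fet-A/d5 replicate 3 the log2 fold change of RFX6 was -0.99 (edgeR adjusted p = 0.018), short of the fold threshold, and over the alternatives it ranged from -0.99 to -0.07 with an adjusted p of 0.018 to 0.909. With the replicate block the values were -0.30 for NKX6-1 (edgeR adjusted p = 0.0369), -0.34 for NKX2-2 (0.0409) and -0.49 for RFX6 (0.0261), also short of it. Over the alternatives NKX6-1 ranged from -0.46 to -0.13 (adjusted p 0.0369 to 0.69) and NKX2-2 from -0.52 to -0.19 (0.0409 to 0.526), both weakest without HSA/d5 replicate 4. FOXA2, a factor of the whole foregut epithelium, was higher by 0.34 (edgeR adjusted p = 0.00743), under the fold threshold. PDX1, INSM1 and UCN3 had no identifier with their symbol and were not analysed here.

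Genes of the machinery that makes and releases hormone were lower with fetuin-A. Of 39 listed genes 35 were tested, and 20 fell, against 6.29% of all genes, with a median log2 fold change of -1.27. Leaving out each library in turn gave 17 to 25, the lowest count without HSA/d5 replicate 4 and the highest without Fet-A/d5 replicate 3. All 4 Fet-A/d5 libraries lay below all 4 HSA/d5 libraries for 18 of these 35, against 13.3% of all genes. Granule proteins fell in 7 of 8, prohormone processing in 3 of 5, calcium channels in 3 of 5 and exocytosis proteins in 4 of 12. With glmTreat 6 of the 35 passed.

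PCSK1, the convertase that starts the cleavage of proinsulin, was at 795, 653, 842 and 1578 CPM in HSA/d5 and at 56, 44, 159.5 and 148 CPM in Fet-A/d5. The groups were far apart, with Fet-A/d5 replicates 1 and 2 the lowest. PCSK1 fell by 3.25 (SE 0.49, edgeR adjusted p = 3.72e-05), to a 9.49-fold lower level. PCSK2, the convertase that also processes proglucagon, fell by 2.01 (edgeR adjusted p = 0.00201) with no overlap, and CPE, the carboxypeptidase that trims the processed prohormones, by 1.55 (0.00647), where Fet-A/d5 replicate 3 overlapped with HSA/d5. CPE lost its call in a fit of only these 8 libraries (edgeR adjusted p = 0.0554, range over the alternatives 4.40e-06 to 0.0554).

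Of the granule proteins, CHGB, a granin that packs hormone into granules, was at 1317, 1351, 1287 and 2498 CPM in HSA/d5 and at 169.6, 135, 619.7 and 443 CPM in Fet-A/d5. HSA/d5 replicate 4 was well above the others of its group, the groups were separate, and CHGB fell by 2.24 (SE 0.39, edgeR adjusted p = 0.000169). CHGA, another granin, was at 3865, 3641, 6883 and 6506 CPM and 970.4, 714, 4636 and 1851 CPM. Fet-A/d5 replicate 3 lay inside the HSA/d5 values, and CHGA fell by 1.35 (SE 0.45, edgeR adjusted p = 0.0232), or by 2.15 without that library. Its call was lost without HSA/d5 replicate 3 or 4 (edgeR adjusted p = 0.0583 and 0.0605), without Fet-A/d5 replicate 1, 2 or 4 (0.075, 0.0767 and 0.0528) and in a fit of only these 8 libraries (0.11), and its adjusted p ranged from 1.46e-05 to 0.11. PTPRN, a membrane protein of dense-core granules, fell by 1.77 (edgeR adjusted p = 3.45e-05) and SLC30A8, which carries zinc into insulin granules, by 2.52 (0.00506), both without overlap.

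Of 3 tested genes of glucose sensing, 2 fell, against 6.29% of all genes, and the median log2 fold change of the 3 was -2.75. G6PC2, the islet glucose-6-phosphatase subunit, was at 13.9, 5.58, 5.78 and 34.7 CPM in HSA/d5 and at 0.0448, 0.047, 0.151 and 2.89 CPM in Fet-A/d5. Fet-A/d5 replicates 1 to 3 were close to zero while replicate 4 kept a low level, and G6PC2 fell by 4.29 (SE 1.10, edgeR adjusted p = 0.00441), or by 7.46 without Fet-A/d5 replicate 4. SLC2A2, the glucose transporter GLUT2 of beta cells, stood at 45, 48.3, 12.7 and 28.6 CPM and 11.7, 2.68, 3.02 and 2.43 CPM. All Fet-A/d5 libraries were lower than all HSA/d5 libraries, and SLC2A2 fell by 2.75 (SE 0.50, edgeR adjusted p = 0.000276). ABCC8, the sulfonylurea receptor subunit of the KATP channel, fell by 1.90 (edgeR adjusted p = 0.0100), and its adjusted p was 0.0512 in a fit of only these 8 libraries, within a range of 1.13e-06 to 0.0512.

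Among exocytosis proteins, SYT5, a calcium sensor of granule fusion, was at 59.3, 42.2, 56.4 and 84 CPM in HSA/d5 and at 12.1, 8.7, 18.7 and 18.1 CPM in Fet-A/d5. The groups did not overlap, and it fell by 2.07 (SE 0.29, edgeR adjusted p = 1.74e-05). SNAP25, a SNARE protein of the plasma membrane, fell by 1.27 (edgeR adjusted p = 0.0119), a call lost without HSA/d5 replicate 4 (-0.97, adjusted p = 0.0615, range over the alternatives 6.15e-08 to 0.0615). VAMP2, its partner on the granule, had a log2 fold change of -0.28 (edgeR adjusted p = 0.00874). GJD2, the gap junction protein that couples beta cells, had a log2 fold change of -1.65 without a block (edgeR adjusted p = 0.0779) and -1.84 with the replicate block (1.16e-05). Without Fet-A/d5 replicate 3, GJD2 passed also unblocked (-2.61, edgeR adjusted p = 0.0112), and over the alternatives it ranged from -2.61 to -1.20 (adjusted p 1.16e-05 to 0.237).

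Of 17 tested of 19 listed islet receptors, 8 fell, against 6.29% of all genes, with a median log2 fold change of -1.08, and with glmTreat 4 passed. GPR119, a lipid receptor that raises cAMP, was at 7.9, 5.72, 6.58 and 6.61 CPM in HSA/d5 and at 0.582, 0.282, 2.72 and 0.672 CPM in Fet-A/d5. The groups were separate with Fet-A/d5 replicate 3 as the highest of its group, and GPR119 fell by 2.66 (SE 0.45, edgeR adjusted p = 0.000112). GIPR, the receptor of the incretin GIP, fell by 1.90 (edgeR adjusted p = 4.20e-06), whereas GLP1R, the receptor of GLP-1, had a log2 fold change of 0.17 (0.737), which was -0.11 without Fet-A/d5 replicate 4 and ranged from -0.11 to 0.61 over the alternatives. CASR, the calcium-sensing receptor, fell by 1.97 (edgeR adjusted p = 5.20e-05), SSTR1, a somatostatin receptor, by 2.12 (4.61e-05), and PRLR, the prolactin receptor linked to beta cell growth, by 2.00 (0.000952). INSR, the insulin receptor, was higher by 0.60 (edgeR adjusted p = 1.53e-06) without overlap, below the fold threshold. Without HSA/d5 replicate 3, 1 receptor of the list rose and 9 fell. The count of 8 became 11 without Fet-A/d5 replicate 3 and 6 without HSA/d5 replicate 4 or Fet-A/d5 replicate 2.

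With all 8 libraries, no member of these 4 endocrine lists rose in edgeR. At an unadjusted p below 0.05, 0 hormones, 1 transcription factor, 0 secretion genes and 2 receptors were higher, and DESeq2 called 0 of them higher.

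Marker lists of endocrine cells share genes with the lists above, INS and GCG among them. The beta cell list, led by INS, summed to 1581, 494, 2797 and 5872 CPM in HSA/d5 and to 317, 189, 1843 and 960.2 CPM in Fet-A/d5, and MAFA, SLC30A8 and G6PC2 fell among 5 tested of 8 listed. The alpha cell list, led by GCG, summed to 24690, 15020, 15910 and 23290 CPM and 1429, 1025, 8454 and 4052 CPM, and 4 of 5 fell, among them GCG, IRX2, a homeobox factor, by 1.37 (edgeR adjusted p = 0.00217) and TTR, transthyretin, by 1.81 (4.21e-05). Over the delta cell list, led by SST, the sums were 2921, 2991, 2638 and 2239 CPM and 890.1, 631, 1524 and 727 CPM, and 2 of 3 fell, SST and LEPR, the leptin receptor, by 1.45 (edgeR adjusted p = 0.00182). Over all genes 6.29% fell. All 3 sums were lower in the Fet-A/d5 library of every same-numbered pair. With the edgeR test glmTreat 0 beta, 2 alpha and 0 delta cell markers passed, where 4, 5 and 2 were lower at an unadjusted p below 0.05 and DESeq2 called 3, 5 and 2. The count of beta cell markers was 4 without Fet-A/d5 replicate 3, and 2 without HSA/d5 replicate 3 or 4, without Fet-A/d5 replicate 1, 2 or 4, with no filter and in a fit of only these 8 libraries. That of alpha cell markers was 5 without Fet-A/d5 replicate 3, and 3 without HSA/d5 replicate 1, 3 or 4, without Fet-A/d5 replicate 1 or 2 and in a fit of only these 8 libraries. With a minimum of 10 counts in every library 3 beta cell markers were tested, of which 1 fell. With the replicate block, where 7.48% of all genes fell, 4 of 5 beta and 5 of 5 alpha cell markers did. The part of a shift between cell types in the lower endocrine genes was not tested.

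**Figure D2:**
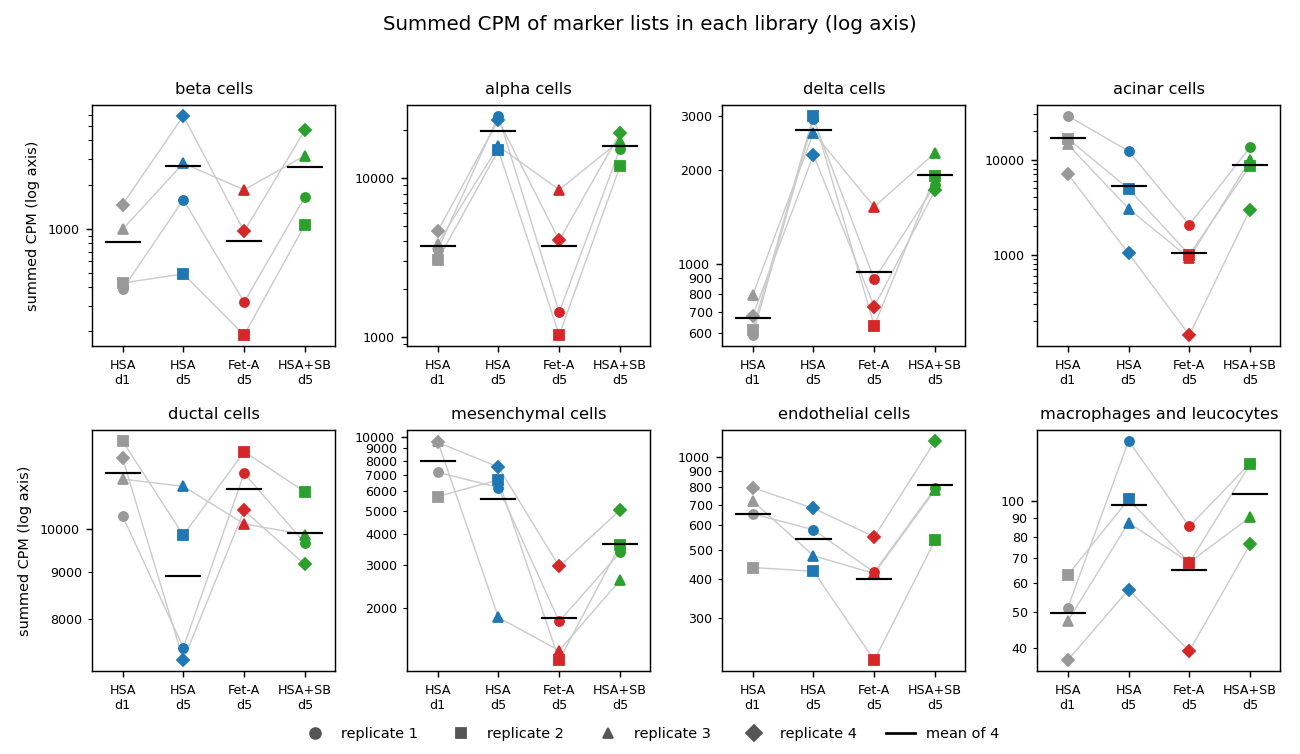
Summed CPM of the tested genes of 8 marker lists on a log axis, in the 4 libraries each of HSA/d1, HSA/d5, Fet-A/d5 and HSA + SB/d5, with a marker shape per replicate number, grey lines joining libraries of the same number and black bars for the mean of 4. The acinar sum is 5337 CPM on average in HSA/d5 and 1029 CPM in Fet-A/d5, and the mesenchymal sum of HSA/d5 replicate 3 lies at 1836 CPM.

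**Figure D3:**
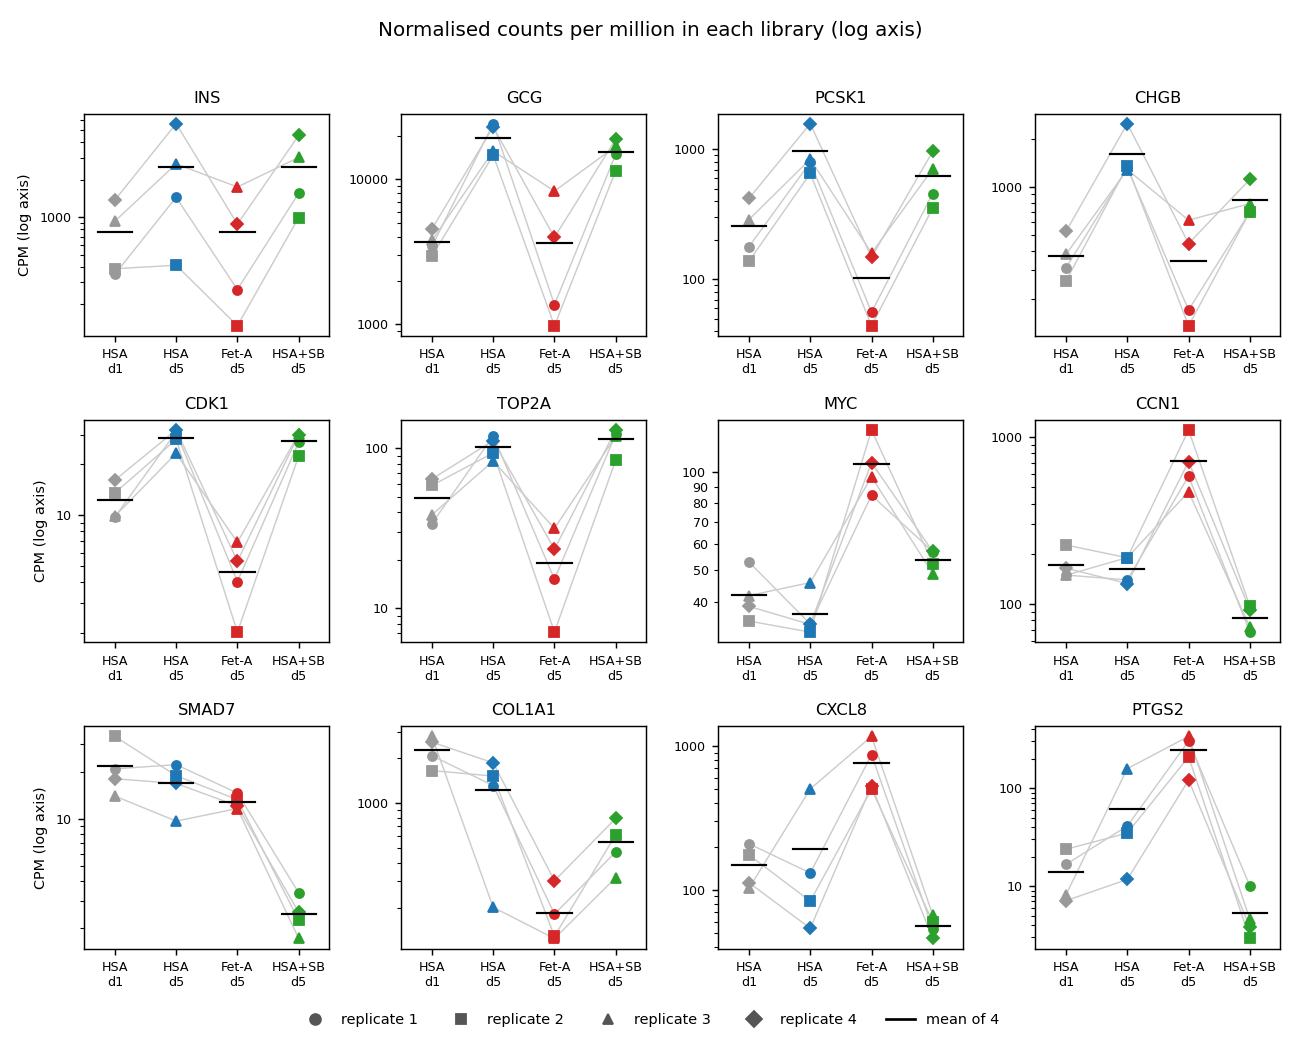
Normalised CPM on a log axis for 12 genes in the 4 libraries each of HSA/d1, HSA/d5, Fet-A/d5 and HSA + SB/d5, with a marker shape per replicate number, grey lines joining libraries of the same number and black bars for the mean of 4. PCSK1 in Fet-A/d5 lies between 44 and 159.5 CPM, below all other libraries except HSA/d1 replicate 2 at 138 CPM, while CCN1 is highest in Fet-A/d5 at 471 to 1105 CPM.

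Genes of cell division fell in most roles. Of 44 listed genes 36 were tested, and 25 fell, against 6.29% of all genes, with a median log2 fold change of -1.55. For 28 of the 36, all Fet-A/d5 libraries lay below all HSA/d5 libraries, against 13.3% of all genes. By role, 10 of 12 mitotic regulators fell, 4 of 4 centromere and kinetochore genes, 5 of 5 spindle genes and 5 of 7 genes of DNA replication and topology. With glmTreat 17 of the 36 were lower.

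CDK1, the kinase that drives entry into mitosis, was at 31.1, 28.2, 23.3 and 32 CPM in HSA/d5 and at 4.03, 2.02, 6.9 and 5.32 CPM in Fet-A/d5. The lowest HSA/d5 library was over 3 times the highest Fet-A/d5 library, and CDK1 fell by 2.65 (SE 0.24, edgeR adjusted p = 1.17e-07). TOP2A, the topoisomerase that untangles replicated DNA, was at 119.8, 93.8, 83.3 and 112 CPM and 15.2, 7.1, 31.6 and 23.4 CPM. Again the groups were separate, Fet-A/d5 replicate 2 was the lowest, and TOP2A fell by 2.40 (SE 0.30, edgeR adjusted p = 5.25e-06). CCNB1, the cyclin of CDK1, fell by 2.54 (edgeR adjusted p = 1.48e-06), FOXM1, a transcription factor of mitotic genes, by 2.21 (6.41e-07), CENPA, the centromere histone, by 2.54 (1.14e-05) and NDC80, a kinetochore protein, by 2.75 (2.85e-06). PCLAF, a factor bound to the replication clamp, fell by 3.10 (edgeR adjusted p = 4.40e-08) and ASF1B, a histone chaperone of dividing cells, by 3.08 (1.68e-08), both without overlap.

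The replicative helicase was affected unequally. MCM2 was at 69, 62.4, 60.1 and 61.1 CPM in HSA/d5 and at 17.7, 10.2, 21.4 and 20.9 CPM in Fet-A/d5, and MCM7 at 138, 132, 127 and 126 CPM and 98.1, 100, 104 and 109.9 CPM. Both were separate between groups, yet MCM2 fell by 1.85 (edgeR adjusted p = 1.03e-07) whereas the log2 fold change of MCM7 was -0.34 (8.71e-05). Of the inhibitors of cyclin-dependent kinases, CDKN2C fell by 1.36 (edgeR adjusted p = 2.11e-05) and CDKN1C, at 13.6, 8.08, 13.5 and 8.91 CPM in HSA/d5 and 30.5, 27.1, 18.3 and 20 CPM in Fet-A/d5, rose by 1.12 (0.00099). CDKN1C was the only gene of the 36 to rise in edgeR, 0 rose with glmTreat where 4 were higher at an unadjusted p below 0.05 and DESeq2 called 1, and its log2 fold change was 0.98 without Fet-A/d5 replicate 1 and 1.00 without HSA/d5 replicate 2, in both cases under the threshold before rounding. CCND1, the cyclin of early G1 phase, was higher by 0.81 (edgeR adjusted p = 0.00019), with all Fet-A/d5 libraries above all HSA/d5 libraries. MKI67 had no identifier with its symbol, and CDKN2A had 6 reads in the 8 libraries and was not tested.

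Fetuin-A and the inhibitor of TGFBR1 were compared directly, to see where their cultures differed at d5. Between Fet-A/d5 and HSA + SB/d5, 1008 genes were lower with fetuin-A (6.79%) and 514 higher (3.46%). CDK1 in HSA + SB/d5 was at 27.1, 22.4, 30.3 and 30 CPM, close to HSA/d5 and far above Fet-A/d5, with a log2 fold change of -2.59 in Fet-A/d5 vs HSA + SB/d5 (edgeR adjusted p = 9.95e-08). Over the whole cell division list, 25 of 36 were lower with fetuin-A than with SB431542. The log2 fold change was -2.61 for PCSK1 (edgeR adjusted p = 0.000213) and -2.09 for GCG (0.00087), and 13 of 35 secretion genes were lower. Of the inflammatory list 17 of 29 were higher and 1 lower, and of the list of TGF-β and BMP signalling 9 of 47 were higher and 3 lower.

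Genes of TGF-β and BMP signalling moved in both directions. Of 49 listed genes 47 were tested, 6 fell, where 6.29% of all genes did, and 2 rose, where 1.84% did. The median log2 fold change was -0.05, and leaving out each library in turn gave a median of -0.17 to -0.017, 5 to 8 lower and 2 to 3 higher genes. With a minimum of 10 counts in every library 45 genes were tested, with a median of -0.25. With glmTreat 2 were lower and 1 higher. None of the 10 ligands and 6 SMADs passed both thresholds in edgeR, where 4 ligands were lower and 1 SMAD was higher and 1 lower at an unadjusted p below 0.05, and DESeq2 called 0 of them. INHBA, the activin A subunit, was at 60.3, 55.9, 62.6 and 70.8 CPM in HSA/d5 and at 32.1, 26.4, 48.8 and 38.9 CPM in Fet-A/d5, separate between groups, with a log2 fold change of -0.77 (SE 0.21, edgeR adjusted p = 0.0065).

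Of 11 receptors 2 fell, ACVR1C and ENG, where 6.29% of all genes did. ACVR1C, which encodes the activin receptor ALK7, stood at 16.9, 10.2, 6.18 and 10.4 CPM in HSA/d5 and at 1.43, 0.658, 2.32 and 1.24 CPM in Fet-A/d5. The groups were far apart, and it fell by 2.95 (SE 0.32, edgeR adjusted p = 7.87e-07). ENG, a co-receptor of endothelial and stromal cells, fell by 1.36 (edgeR adjusted p = 0.00128), though HSA/d5 replicate 3 at 39.5 CPM lay among the Fet-A/d5 values. The ligand-binding receptors TGFBR1 and TGFBR2 had log2 fold changes of -0.24 (edgeR adjusted p = 0.0293) and -0.30 (0.33), and the signal carriers SMAD2 and SMAD3 of 0.16 (0.00977) and 0.15 (0.378). Over the alternatives the log2 fold change ranged from -0.31 to -0.17 for TGFBR1 (adjusted p 0.00671 to 0.133), -0.49 to -0.15 for TGFBR2 (0.00463 to 0.679), 0.12 to 0.19 for SMAD2 (0.00242 to 0.0606) and 0.06 to 0.24 for SMAD3 (0.0789 to 0.753). TGFBR2 and SMAD3 were closest to 0 without HSA/d5 replicate 4.

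Targets of the pathway differed from one another. Of 12 tested 4 fell, where 6.29% of all genes did, and 2 rose, where 1.84% did. MYC, a growth regulator that TGF-β represses, was at 34.1, 32.2, 45.7 and 34 CPM in HSA/d5 and at 84.7, 134, 96.5 and 107 CPM in Fet-A/d5. The groups were widely separate, and MYC rose by 1.53 (SE 0.14, edgeR adjusted p = 1.07e-07). CCN2, a matricellular protein that TGF-β and YAP induce, was at 284, 399, 349.8 and 268 CPM and 771, 756, 720.5 and 658 CPM. All Fet-A/d5 libraries were higher, and CCN2 rose by 1.16 (SE 0.13, edgeR adjusted p = 8.96e-07). POSTN, a matrix protein, fell by 2.53 (edgeR adjusted p = 0.00059), TGFBI, a secreted adhesion protein, by 1.43 (0.0011) and SNAI1, a repressor of epithelial genes, by 1.39 (0.000567). POSTN and SNAI1 overlapped only through HSA/d5 replicate 3, at 24.1 and 4.81 CPM.

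SMAD7 and SKIL differed between fetuin-A and SB431542. In Fet-A/d5 vs HSA/d5 none of 8 tested genes listed as inhibitors, a set without PMEPA1, passed both thresholds in edgeR, where 3 were higher and 1 lower at an unadjusted p below 0.05, DESeq2 called 0 and the fit with the replicate block called 1 higher. SMAD7, the inhibitory SMAD that the pathway induces, was at 22.2, 18.9, 9.66 and 16.8 CPM in HSA/d5, at 14.6, 13.2, 11.6 and 12.1 CPM in Fet-A/d5 and at 3.37, 2.25, 1.72 and 2.53 CPM in HSA + SB/d5. Fet-A/d5 overlapped with HSA/d5, while all HSA + SB/d5 libraries lay far below both. The log2 fold change was -0.39 in Fet-A/d5 vs HSA/d5 (SE 0.27, edgeR adjusted p = 0.284), -2.76 in HSA + SB/d5 vs HSA/d5 (8.96e-06), which share the HSA/d5 libraries, and 2.38 in the direct comparison of Fet-A/d5 with HSA + SB/d5 (3.72e-06). With fetuin-A it ranged from -0.58 to -0.23 over the alternatives (adjusted p 0.0725 to 0.59), and was -0.58 without HSA/d5 replicate 3 and -0.23 without HSA/d5 replicate 1. SKIL, a corepressor of SMADs, had a log2 fold change of -0.05 with fetuin-A (edgeR adjusted p = 0.733, range 0.336 to 0.982) and was higher by 2.07 in Fet-A/d5 than in HSA + SB/d5 (6.09e-10). Of the 8 inhibitors, 5 were higher in this direct comparison and 0 lower, where 3.46% and 6.79% of all genes were. BAMBI, another of the 8, was lower by 0.60 with fetuin-A (edgeR adjusted p = 0.0318) and by 0.72 with SB431542 (0.0424). Its log2 fold change in the direct comparison was 0.12 (edgeR adjusted p = 0.675).

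PMEPA1, a membrane protein that restrains SMAD signalling and is listed here with the targets, lay at the fold threshold. It was at 459.9, 492, 248 and 476 CPM in HSA/d5 and at 203, 212, 189.7 and 231 CPM in Fet-A/d5, with HSA/d5 replicate 3 well below the others of its group but above all Fet-A/d5 libraries. PMEPA1 fell by 1.00 (SE 0.18, edgeR adjusted p = 0.000249), and with the replicate block its log2 fold change was -0.97, short of the threshold. The same held without HSA/d5 replicate 1, 2 or 4 (-0.95, -0.92 and -0.94) and without Fet-A/d5 replicate 1 or 3 (-0.99 and -0.96).

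Matrix genes fell by role to unequal extents. Of 35 listed genes 32 were tested, 13 fell, against 6.29% of all genes, and 1 rose, and the median log2 fold change was -0.91. All 4 Fet-A/d5 libraries lay below all 4 HSA/d5 libraries for 5 of these 32, where they did for 13.3% of all genes. With glmTreat 6 fell, and without HSA/d5 replicate 3 18 fell and 0 rose. Leaving out Fet-A/d5 replicate 4 gave 17 lower genes. Of the fibrillar collagens 4 of 5 fell, of glycoproteins and proteoglycans 7 of 12, of crosslinking and turnover 2 of 9, and of the 6 basement membrane genes none in edgeR, with 1 lower at an unadjusted p below 0.05 and 0 called by DESeq2. COL1A1, the collagen I chain, was at 1312, 1518, 202 and 1862 CPM in HSA/d5 and at 182, 129, 125 and 304 CPM in Fet-A/d5. HSA/d5 replicate 3 was down at the level of Fet-A/d5, the other 3 were several times higher, and COL1A1 fell by 2.73 (SE 0.45, edgeR adjusted p = 9.35e-05), or by 3.08 without HSA/d5 replicate 3. COL3A1, the collagen III chain, fell by 2.91 (edgeR adjusted p = 3.64e-05) and FN1, fibronectin, by 2.04 (0.000178), with the same low replicate.

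The calls of TNC and LOX changed with single libraries. TNC, tenascin C, fell by 1.24 (SE 0.43, edgeR adjusted p = 0.0304), a call lost without HSA/d5 replicate 1 or 4 (adjusted p = 0.0551 and 0.131), without Fet-A/d5 replicate 2 (0.103) and in a fit of only these 8 libraries (0.0505), within a range of 8.59e-05 to 0.131. LOX, the lysyl oxidase that crosslinks collagen, went against the list, at 17.6, 35.7, 7.28 and 20.6 CPM in HSA/d5 and 44.3, 62.8, 38.8 and 44.1 CPM in Fet-A/d5. It rose by 1.23 (SE 0.32, edgeR adjusted p = 0.00503) with all Fet-A/d5 libraries the higher, its log2 fold change was 0.95 without HSA/d5 replicate 3, and its adjusted p was 0.0576 in a fit of only these 8 libraries, within a range of 3.07e-05 to 0.0576.

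Mesenchymal markers were lower beside the matrix genes. Their sum, led by VIM, was 6215, 6679, 1836 and 7534 CPM in HSA/d5 and 1769, 1228, 1344 and 2962 CPM in Fet-A/d5, and 9 of 12 tested of 13 listed fell, against 6.29% of all genes, and 3 did with glmTreat. PDGFRB, a receptor of pericytes and stellate cells, fell by 1.23 (edgeR adjusted p = 0.00235), a call lost in a fit of only these 8 libraries (0.0561, range over the alternatives 6.49e-06 to 0.0561), while the log2 fold change of VIM was -0.21 (0.658), and 0.09 without HSA/d5 replicate 4, within a range of -0.60 to 0.09 (adjusted p 0.0114 to 0.928). The lists share 5 genes, 5 of the 13 mesenchymal and of the 35 matrix genes, so they are not independent, and the part of a shift in mesenchymal cells in the lower matrix genes was not tested.

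Of the 12 gene lists, that of the inflammatory response had the most rising genes. Of 36 listed genes 29 were tested and 13 rose, with a median log2 fold change of 0.88, where 1.84% of all genes rose. All 4 Fet-A/d5 libraries lay above all 4 HSA/d5 libraries for 6 of these 29, where they did for 15.2% of all genes. These 6 held 0 of 5 chemokines and 0 of 7 cytokines. With all libraries and no block none fell in edgeR, while IL33, an alarmin of the interleukin 1 family, was lower at an unadjusted p below 0.05 and called by DESeq2. Its log2 fold change was -1.04 (edgeR adjusted p = 0.0576), and it fell with the replicate block by 1.08 (edgeR adjusted p = 0.000944), without HSA/d5 replicate 3 by 1.23 (0.0327) and without Fet-A/d5 replicate 4 by 1.29 (0.0365), within a range of 0.000944 to 0.175. Chemokines rose in 5 of 5, cytokines in 3 of 7, genes of the NF-κB pathway in 2 of 6 and effectors in 3 of 7. Of 4 receptors 0 rose in edgeR, where 1 was higher at an unadjusted p below 0.05 and DESeq2 called 0. The count changed with single libraries. Without HSA/d5 replicate 1, 2 or 4 it was 6, 6 and 7, and without HSA/d5 replicate 3 it was 17, with 1 lower. Leaving out Fet-A/d5 replicate 3 gave 9. In a fit of only these 8 libraries it was 5, and with the edgeR test glmTreat 0, where 20 were higher at an unadjusted p below 0.05 and DESeq2 called 12.

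CXCL8, the neutrophil chemokine interleukin 8, was at 131, 83.5, 503 and 54.1 CPM in HSA/d5 and at 869, 503, 1168 and 528 CPM in Fet-A/d5. HSA/d5 replicate 3 reached the lowest Fet-A/d5 library, while the other 3 lay well below. CXCL8 rose by 1.99 (SE 0.49, edgeR adjusted p = 0.00312) and CXCL2, a related chemokine, by 1.94 (0.00413), or by 3.10 and 3.18 without HSA/d5 replicate 3. PTGS2, the inducible cyclooxygenase, was at 41, 34.7, 158 and 11.7 CPM in HSA/d5, at 303, 208, 337 and 121 CPM in Fet-A/d5 and at 10, 2.92, 4.56 and 3.82 CPM in HSA + SB/d5. HSA/d5 replicate 3 overlapped with Fet-A/d5, all HSA + SB/d5 libraries lay below both, and PTGS2 rose with fetuin-A by 1.98 (SE 0.63, edgeR adjusted p = 0.0178), or by 3.05 without HSA/d5 replicate 3. In Fet-A/d5 vs HSA + SB/d5 the log2 fold change was 5.49 for PTGS2 (edgeR adjusted p = 1.04e-05) and 3.76 for CXCL8 (1.20e-05). In a fit of only these 8 libraries the adjusted p was 0.0666 for CXCL8, 0.0739 for CXCL2 and 0.0768 for PTGS2, and PTGS2 was also not called without HSA/d5 replicate 1 or 2 (0.0556 and 0.0544). Over the alternatives the adjusted p ranged from 2.64e-06 to 0.0666 for CXCL8, 9.08e-07 to 0.0739 for CXCL2 and 0.000331 to 0.0768 for PTGS2.

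ICAM1 and SOD2 were separate between groups. ICAM1, an adhesion molecule that binds leucocytes, was at 144, 139, 245 and 90.1 CPM in HSA/d5 and at 472, 443, 374 and 326 CPM in Fet-A/d5, and rose by 1.39 (SE 0.24, edgeR adjusted p = 0.000156). SOD2, the mitochondrial superoxide dismutase that NF-κB induces, was at 105, 112, 169.9 and 96.2 CPM and 319, 307, 277 and 241 CPM, and rose by 1.24 (SE 0.13, edgeR adjusted p = 5.73e-07). Both kept their calls in the alternatives other than glmTreat. NFKB1, a subunit of NF-κB, was higher by 0.76 (edgeR adjusted p = 8.98e-06) and TLR4, the receptor of lipopolysaccharide, by 0.87 (0.00114), both without overlap and below the fold threshold.

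NFKBIA, BIRC3 and CCL2 lay near the fold threshold. NFKBIA, the inhibitor that NF-κB induces, rose by 1.14 (edgeR adjusted p = 0.00068), and its log2 fold change was 0.99 without HSA/d5 replicate 4. BIRC3, an inhibitor of apoptosis, was at 273, 251, 578 and 244 CPM in HSA/d5 and at 720.1, 627, 837 and 676 CPM in Fet-A/d5. The groups were separate though HSA/d5 replicate 3 was close, and BIRC3 rose by 1.09 (edgeR adjusted p = 0.000202), with values of 1.00, 0.97 and 0.96 without HSA/d5 replicate 1, 2 or 4, each under the threshold before rounding. CCL2, a monocyte chemokine, rose by 1.05 (edgeR adjusted p = 0.00301), and was at 0.97, 0.89 and 0.99 without HSA/d5 replicate 1, 2 or 4 and at 0.87 and 0.99 without Fet-A/d5 replicate 3 or 4. In a fit of only these 8 libraries the adjusted p of CCL2 was 0.0503, within a range of 6.97e-05 to 0.0503.

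Cytokines varied widely between libraries of a group. IL1A, interleukin 1α, was at 3.75, 1.13, 19.9 and 1.44 CPM in HSA/d5 and at 25.4, 16.3, 37.5 and 13.3 CPM in Fet-A/d5, and rose by 1.82 (SE 0.61, edgeR adjusted p = 0.0234). Its call was lost without HSA/d5 replicate 1, 2 or 4 (edgeR adjusted p = 0.072, 0.0585 and 0.0669), without Fet-A/d5 replicate 3 (0.0745) and in a fit of only these 8 libraries (0.152), within a range of 1.22e-05 to 0.152. HSA/d5 replicate 3 lay among the Fet-A/d5 values of IL1A, which rose by 3.45 without it. IL6, interleukin 6, rose by 2.38 (SE 0.78, edgeR adjusted p = 0.0215), a call lost without HSA/d5 replicate 1 or 2 (0.0676 and 0.0626), without Fet-A/d5 replicate 3 (0.0656) and in a fit of only these 8 libraries (0.0693), within a range of 5.70e-06 to 0.0693. CSF3, the granulocyte growth factor, was at 0.0903, 0.236, 7.55 and 0.205 CPM in HSA/d5 and at 6.05, 4.09, 18.7 and 7.34 CPM in Fet-A/d5. Only HSA/d5 replicate 3 overlapped, and the log2 fold change of CSF3 was 2.15 (edgeR adjusted p = 0.0522), not past the threshold. It passed with the replicate block (2.67, edgeR adjusted p = 0.000351), without HSA/d5 replicate 3 (5.64, 4.47e-06) and without Fet-A/d5 replicate 2 (2.39, 0.0493), within a range of 4.47e-06 to 0.214. IL1B had no identifier with its symbol and was not analysed here.

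Markers of macrophages and leucocytes, led by CD68, summed to 145, 101, 87.2 and 57.6 CPM and 85.3, 68.1, 68.2 and 39.3 CPM. Of 14 tested of 15 listed 3 fell, against 6.29% of all genes, the complement genes C1QA by 1.33 (edgeR adjusted p = 0.014), C1QB by 1.67 (0.00264) and C1QC by 1.31 (0.0265), and 0 did with glmTreat, where 5 were lower at an unadjusted p below 0.05 in the standard edgeR test and DESeq2 called 3. Of these 3, only C1QB was called without HSA/d5 replicate 1 (adjusted p of C1QA 0.079, of C1QC 0.152 at a log2 fold change of -0.85) and in a fit of only these 8 libraries (0.0563 and 0.074), and C1QC was not called without Fet-A/d5 replicate 2, 3 or 4 (0.0658, 0.0566 and 0.0798). The adjusted p ranged from 4.63e-06 to 0.079 for C1QA and 1.39e-05 to 0.152 for C1QC. CD68, a lysosomal protein, had a log2 fold change of -0.32 (edgeR adjusted p = 0.527), within a range of -0.51 to -0.13 (0.0671 to 0.816). The part of a shift in these cells in the higher inflammatory genes was not tested.

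Of 12 tested of 16 listed interferon-stimulated genes 2 rose, where 1.84% of all genes did. The median log2 fold change was 0.38, and 0.029 without Fet-A/d5 replicate 3. RSAD2, an antiviral enzyme, was at 0.135, 0.0945, 0.221 and 0.256 CPM in HSA/d5 and at 0.582, 0.376, 5.84 and 0.724 CPM in Fet-A/d5. All Fet-A/d5 libraries were the higher, with replicate 3 far above the rest, and the log2 fold change without that library was 1.64. RSAD2 rose by 3.37 (SE 0.85, edgeR adjusted p = 0.00396) and IFIT1, an RNA-binding antiviral protein, by 1.66 (0.0297). Without Fet-A/d5 replicate 3 the list had 0 calls in edgeR, as with glmTreat and in a fit of only these 8 libraries. RSAD2 was not tested in the fit of only these 8 libraries. The adjusted p without Fet-A/d5 replicate 3 was 0.0649 for RSAD2 and 0.28 for IFIT1, whose log2 fold change was then 0.73. With all libraries, 4 genes were higher at an unadjusted p below 0.05 and DESeq2 called 2. IFIT1 was also not called without HSA/d5 replicate 1, 2 or 4 (edgeR adjusted p = 0.0754, 0.083 and 0.0599) or in a fit of only these 8 libraries (0.103). Its adjusted p ranged from 0.000811 to 0.28, and that of RSAD2 from 9.69e-05 to 0.0649. STAT2, a transducer of the interferon signal, had a log2 fold change of -0.68 (edgeR adjusted p = 0.000112).

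In lists of metabolism and stress few genes passed both thresholds. Of 21 tested of 23 listed genes of cholesterol synthesis 1 rose, where 1.84% of all genes did. That call was lost without HSA/d5 replicate 1, without Fet-A/d5 replicate 2, with a minimum of 10 counts, in a fit of only these 8 libraries and with glmTreat. That left 0 genes called in edgeR, where 10 were higher at an unadjusted p below 0.05 with all libraries and DESeq2 called 1. SREBF2, the master factor of sterol synthesis, was higher by 0.42 (edgeR adjusted p = 0.00133), and the median of the list was 0.18. None of 20 tested of 27 listed genes of the unfolded protein response and stress passed both thresholds in edgeR or in DESeq2, where 4 were higher and 2 lower at an unadjusted p below 0.05 and the median was -0.05. Over all 14842 genes, 3443 were higher and 3243 lower at that unadjusted p in edgeR. HSPA5, the main chaperone of the endoplasmic reticulum, had a log2 fold change of -0.19 (edgeR adjusted p = 0.277, range of the fold change -0.24 to -0.09), ATF3, a stress-induced transcription factor, of 0.72 (0.00159) and TRIB3, a pseudokinase of the same response, of 0.64 (0.000142).

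A list of glycolysis, genes that mature beta cells keep low and genes of the hypoxia response had 21 tested of 24, of which 1 rose, where 1.84% of all genes did, and 1 fell, where 6.29% did, with a median of 0.30. HK2, the inducible hexokinase, was at 12.4, 10.5, 14.3 and 7.89 CPM in HSA/d5 and at 29, 41.8, 33.5 and 29 CPM in Fet-A/d5. The groups were separate and HK2 rose by 1.56 (SE 0.34, edgeR adjusted p = 0.00143), while HK1, the constitutive hexokinase kept low in mature beta cells, was higher by 0.73 (0.00017). For 12 of the 21 all Fet-A/d5 libraries lay above all HSA/d5 libraries, against 15.2% of all genes: 9 of 15 of glycolysis, 3 of 4 of the hypoxia response and 0 of 2 kept low in beta cells. ADM, adrenomedullin of the hypoxia response, was at 10.3, 7.8, 9.84 and 7.94 CPM and 19.2, 22.2, 21.9 and 21.4 CPM, with a log2 fold change of 1.24 (edgeR adjusted p = 0.0518). It passed with the replicate block (edgeR adjusted p = 0.0382), in a fit of only these 8 libraries (0.00144) and with DESeq2 (adjusted p = 0.0262), within a range of 0.00144 to 0.109. PDGFRA, a growth factor receptor of stromal cells, fell by 1.37 (edgeR adjusted p = 0.0152), a call lost without HSA/d5 replicate 1 (-0.86, adjusted p = 0.111), without Fet-A/d5 replicate 2 (0.0533) and in a fit of only these 8 libraries (0.0731), within a range of 0.00291 to 0.111.

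Beyond the lists, the 10 largest rises among genes with a symbol, a mean of at least 5 CPM over the 8 libraries and no overlap were of mixed function. A gene could reach that mean through the Fet-A/d5 libraries alone. HRG, at a mean of 5.01 CPM, was not tested with a minimum of 10 counts in every library. Of the genes with no symbol, the 2 of largest rise had larger log2 fold changes under the same conditions, and both values moved with single libraries. The first was at 1.76, 1.09, 1.41 and 1.13 CPM in HSA/d5 and at 2.69, 77.7, 1.91 and 1.96 CPM in Fet-A/d5, and its log2 fold change of 3.96 (edgeR adjusted p = 0.0397) was 0.70 without Fet-A/d5 replicate 2 (adjusted p = 0.73). Its call was also lost without each of the HSA/d5 libraries (edgeR adjusted p = 0.0757, 0.0839, 0.0733 and 0.0879) and in a fit of only these 8 libraries (0.0648), within a range of 0.0267 to 0.73. The second rose by 3.53 (edgeR adjusted p = 0.00441), by 6.52 without HSA/d5 replicate 3, and was not called in a fit of only these 8 libraries (0.0585, range over the alternatives 1.36e-07 to 0.0585). NEURL3, a ubiquitin ligase, was at 5.24, 10, 22.9 and 3.33 CPM in HSA/d5 and at 90.8, 191, 96.9 and 71 CPM in Fet-A/d5, and rose by 3.43 (SE 0.52, edgeR adjusted p = 4.14e-05). KNG1, the kininogen precursor of bradykinin, was at 49.9, 24.7, 68.8 and 23 CPM and 336, 275, 196 and 190.5 CPM, and rose by 2.58 (SE 0.41, edgeR adjusted p = 7.10e-05). HRG, histidine-rich glycoprotein, rose by 2.50 (edgeR adjusted p = 0.00284), and both KNG1 and HRG are plasma proteins of the cystatin superfamily to which fetuin-A belongs. The basement membrane collagens COL4A3 and COL4A4 rose by 2.52 (edgeR adjusted p = 0.000303) and 1.88 (0.000708). CCN1, a matricellular protein of the same family as CCN2, was at 139.5, 189, 189.7 and 133 CPM in HSA/d5, at 584, 1105, 471 and 714 CPM in Fet-A/d5 and at 67.8, 96.8, 72.8 and 92.5 CPM in HSA + SB/d5. It was highest in Fet-A/d5 and lowest in HSA + SB/d5, and it rose with fetuin-A by 2.14 (SE 0.24, edgeR adjusted p = 1.41e-06).

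DUOX1, an oxidase that makes hydrogen peroxide at epithelial surfaces, rose by 2.26 (edgeR adjusted p = 4.48e-06). TMPRSS11F, a membrane serine protease, rose by 2.29 (edgeR adjusted p = 0.000186), DHRS3, a retinal reductase, by 1.94 (0.000106) and PIM1, a survival kinase, by 1.93 (1.37e-06). Among the most abundant genes by counts to rise were CFD, complement factor D, at 522, 755, 1236 and 411 CPM in HSA/d5 and 2038, 2116, 1295 and 1472 CPM in Fet-A/d5, and FGFR2, a receptor of epithelial growth factors. CFD rose by 1.24 (SE 0.28, edgeR adjusted p = 0.00154), with HSA/d5 replicate 3 just below Fet-A/d5 replicate 3, and FGFR2 rose 2.33-fold (8.04e-05).

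The 10 largest falls of genes with a symbol under the same conditions included G6PC2, PCSK1, PCLAF and ASF1B. Within their range, 1 gene with no symbol fell by 3.46. PRSS2, the trypsinogen gene of acinar cells, was at 397, 90.1, 167 and 74.9 CPM in HSA/d5 and at 5.87, 2.44, 15.8 and 5.17 CPM in Fet-A/d5, and fell by 4.64 (SE 0.76, edgeR adjusted p = 8.85e-05). KLK1, tissue kallikrein, fell by 3.49 (edgeR adjusted p = 0.00199), KCNK16, a potassium channel of islets, by 3.44 (5.95e-06) and CITED1, a transcriptional coregulator, by 3.23 (3.24e-05). SLC16A9, a monocarboxylate transporter family member, fell by 3.82 (edgeR adjusted p = 7.34e-05) and NDST3, an enzyme of heparan sulfate synthesis, by 3.67 (0.000387). The groups of each did not overlap, which the rule for naming these genes required. With a minimum of 10 counts in every library, G6PC2, SLC16A9 and NDST3 were not tested.

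Several markers of exocrine cells also fell. The acinar list, led by CPA1, summed to 12340, 4933, 3044 and 1028 CPM in HSA/d5 and to 2065, 997, 914 and 142 CPM in Fet-A/d5, lower in 4 of 4 same-numbered pairs but spread over a wide range in both groups. Of 11 tested of 21 listed, against 6.29% of all genes, 4 fell, PRSS2, CPA1, CEL and RBPJL, and among those tested only GP2 was at 0 in any of the 8 libraries. PNLIP and CELA2A, enzymes of mature acinar cells, had 7 and 9 reads in the 8 libraries together and were not tested. CPA1, a carboxypeptidase, was at 6181, 2558, 1646 and 569.7 CPM and 1282, 559, 552 and 72.9 CPM and fell by 2.15 (SE 0.77, edgeR adjusted p = 0.0348), CEL, a lipase, fell by 2.79 (0.0184) and RBPJL, an acinar transcription factor, by 2.44 (0.0251). PTF1A, which drives acinar genes together with RBPJL, had a log2 fold change of 0.11 (edgeR adjusted p = 0.924), and of -0.88 without Fet-A/d5 replicate 1, -0.07 without HSA/d5 replicate 3 and -0.22 without HSA/d5 replicate 4. The count of 4 was 1 without HSA/d5 replicate 1, 2 without Fet-A/d5 replicate 2, 3 or 4, 1 in a fit of only these 8 libraries and 1 with glmTreat. Without HSA/d5 replicate 1 the adjusted p was 0.183 for CPA1, 0.104 for CEL and 0.173 for RBPJL, at log2 fold changes of -1.37 for CPA1 and -1.48 for RBPJL. CPA1 and RBPJL were also not called without Fet-A/d5 replicate 2 (0.0822 and 0.0637), 3 (0.0688 and 0.0594) or 4 (0.0746 and 0.0667). In a fit of only these 8 libraries the adjusted p was 0.108 for CPA1, 0.0691 for CEL and 0.0815 for RBPJL. Over the alternatives the adjusted p ranged from 1.72e-06 to 0.183 for CPA1, 1.15e-07 to 0.104 for CEL and 6.39e-07 to 0.173 for RBPJL.

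Ductal markers were not lower as a group. The list, led by SPP1, summed to 7463, 9842, 11100 and 7234 CPM in HSA/d5 and to 11460, 12090, 10120 and 10460 CPM in Fet-A/d5. Of 11 tested of 14 listed, against 6.29% of all genes, 1 fell, AQP1, a water channel, by 1.26 (edgeR adjusted p = 0.00637), with a log2 fold change of -0.95 without HSA/d5 replicate 4, which left 0 calls. With glmTreat and in a fit of only these 8 libraries (AQP1 adjusted p = 0.0576, range over the alternatives 0.000224 to 0.0576) there were also 0 calls, where 3 genes were lower and 3 higher at an unadjusted p below 0.05 with the standard edgeR test and DESeq2 called 1. Over all 14842 genes, 3243 were lower and 3443 higher at that unadjusted p. SPP1, osteopontin, was higher by 0.62 (edgeR adjusted p = 0.0156) and CFTR, the chloride channel of ducts, by 0.87 (0.00173), below the fold threshold. CFTR passed it without HSA/d5 replicate 3 (1.15, edgeR adjusted p = 2.81e-05, range over the alternatives 2.81e-05 to 0.0406).

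Endothelial markers were lower in the blocked fit, below the fold threshold. The list, led by PECAM1, summed to 580.1, 425, 477 and 681 CPM in HSA/d5 and to 422, 218, 418 and 550.5 CPM in Fet-A/d5, lower in 4 of 4 same-numbered pairs though the groups overlapped. With the replicate block, 7 of 10 tested of 11 listed were lower at an adjusted p below 0.05, where 26.6% of all genes were. With all libraries none passed both thresholds in edgeR, with or without the block, or in DESeq2, 2 were lower at an unadjusted p below 0.05, and 1 was called lower without Fet-A/d5 replicate 4. PECAM1, an adhesion protein of endothelium, had a log2 fold change of -0.29 (edgeR adjusted p = 0.501), and of -0.35 with the block (0.00916). Over the alternatives it ranged from -0.49 to -0.07, with an adjusted p of 0.00916 to 0.897. It was -0.49 without Fet-A/d5 replicate 4, -0.12 without HSA/d5 replicate 4 and -0.07 without Fet-A/d5 replicate 2.

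The neural and Schwann cell list summed to 538, 422, 656 and 1912 CPM in HSA/d5 and to 563, 574, 538 and 2222 CPM in Fet-A/d5, with replicate 4 far above the others in both groups. Of 5 tested of 6 listed 1 fell, where 6.29% of all genes did, a call lost without HSA/d5 replicate 4, without Fet-A/d5 replicate 2 or 3 and with glmTreat. That left 0 calls in edgeR, where 1 gene was lower at an unadjusted p below 0.05 with all libraries and DESeq2 called 1. SOX10, a factor of neural crest cells, had a log2 fold change of 0.30 (edgeR adjusted p = 0.649), and of -0.16 without Fet-A/d5 replicate 4, within a range of -0.16 to 0.73 (adjusted p 0.0133 to 0.889). Hepatocyte plasma proteins, led by APOA1, summed to 571, 468, 352 and 434 CPM in HSA/d5 and to 255, 195, 266 and 272 CPM in Fet-A/d5, and of 4 tested of 8 listed TTR fell and 1 rose, where 6.29% and 1.84% of all genes did. That rise was lost with the replicate block, with upper-quartile normalisation, with no filter and with a minimum of 10 counts, in a fit of only these 8 libraries, with glmTreat, without HSA/d5 replicate 1, 2 or 3 and without Fet-A/d5 replicate 1, 2 or 4. TTR is also a member of the alpha cell list. The log2 fold change was -0.33 for APOA1 (edgeR adjusted p = 0.114, range over the alternatives 0.0456 to 0.305) and -0.04 for ALB, albumin (0.924). The part of shifts between these cell types in the lower cell division genes was not tested.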

How the data were processed

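The deposited files give, per the labels and headers, reads counted per gene as an integer raw count for each library, which the authors obtained, by the submitters' processing notes, with FastQC 0.11.8, Trim Galore 0.5, STAR 2.6.1, Picard and featureCounts 1.6.2, and tested with DESeq2 1.22.1. The genome build and annotation were not given in the sources used here. The table holds 25880 genes, of which 14857 matched a symbol in the RefSeq table of the pig, and 6 of the 24 libraries have 2 sample entries. Here R 4.3.3 with edgeR 4.0.16 (TMM, filterByExpr, glmQLFit and glmQLFTest, a coefficient per condition over all 24 libraries) tested 14842 genes, and DESeq2 1.42.0 served as an alternative. The code was tested on simulated data. P-values were adjusted after Benjamini and Hochberg over all genes tested.

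Genes named are members of the lists and, beyond them, the 10 largest changes in each direction among genes with a symbol past both thresholds with a mean of at least 5 CPM over the 8 libraries and groups without overlap, and the 5 of highest mean CPM in each direction. DUOX2, DUOXA1, SHF, GATM and EIF4A2 were chosen after their values were seen, as neighbours of such genes. The members and lists were chosen with earlier results of these data known. The pairing of replicates comes from the order of library numbers, which repeats through 6 conditions in blocks of 6. Across genes, log2 CPM centred on the group mean correlated between Fet-A/d5 and HSA/d5 at 0.338 to 0.679 with the same number and at -0.476 to 0.249 with another, and genes are not independent replicates. Alternatives were other normalisations, filters and tests, the 2 conditions alone, the replicate block, glmTreat and each library left out in turn. The 200 genes past both thresholds with no symbol were counted and not named.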

Additional observations from a re-analysis of the deposited data

Results flagged for a closer look

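Of 274 groups of 4 values checked, 21 held a library whose gap to the nearest other, as a share of the group's range, was past Dixon's 95% critical value, where chance alone flags about 1 in 20 groups. In HSA/d5 replicate 3 this share was 0.869 for PMEPA1, 0.86 for MYC, 0.924 for CXCL2, 0.861 for IL1A, 0.98 for CSF3, 0.913 for BIRC3, 0.96 for PDGFRB and 0.93 for TMPRSS11F. PMEPA1 and PDGFRB were the lowest there, PDGFRB at 79.5 CPM against 288 CPM in the nearest library, and the other genes the highest. In HSA/d5 replicate 4 it was 0.947 for CHGB, 0.85 for PTPRN, 0.844 for VAMP2, 0.888 for GLP1R and 0.929 for TLR4, with TLR4 the lowest and the others the highest.

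In Fet-A/d5 replicate 3 the share was 0.84 for GPR119, 0.837 for TTR and 0.936 for RSAD2, each the highest of its group. In Fet-A/d5 replicate 4 it was 0.963 for G6PC2, 0.865 for AQP1 and 0.959 for SOX10, each the highest. SLC2A2 was highest in Fet-A/d5 replicate 1 with a share of 0.936, and EIF4A2 in Fet-A/d5 replicate 2 with 0.911.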

How the results depend on the processing

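The counts of 273 higher and 933 lower genes, and of 1522 genes past both thresholds in Fet-A/d5 vs HSA + SB/d5, stayed within 1.5 times under the other normalisations, filters, DESeq2, the 2 conditions alone and the replicate block. With glmTreat they were 29, 227 and 406, since it tests against a change of 1. Leaving out each library in turn gave 217 to 389 higher, 756 to 1056 lower and 1291 to 1648 genes. For 134 genes, 2133 alternative values were computed, of which 1960 left the direction and the call as they were, 147 lost the call, 20 gained it and 6 changed sign. Those 6 were of genes with no call. Leaving out each library in turn moved the log2 fold change of GLP1R between -0.11 and 0.61, of PTF1A between -0.88 and 0.78, of VIM between -0.60 and 0.094 and of SOX10 between -0.16 and 0.73, and the sign of PTF1A changed also at -0.07 and -0.22. The replicate block changed the calls of INS, GJD2, CSF3, IL33, ADM, DUOX2 and PMEPA1, whose values stand beside those genes, and no other call among the 134. With it 7.48% of all genes fell. So did 4 of 4 hormones, 7 of 15 transcription factors, 10 of 17 islet receptors and 24 of 35 secretion genes, including 6 of 12 exocytosis proteins. In the same fit 14 of 32 matrix genes and 10 of 12 mesenchymal, 6 of 11 acinar and 4 of 14 macrophage and leucocyte markers fell. Where 2.24% of all genes rose, 14 of 29 inflammatory, 3 of 47 TGF-β and BMP and 2 of 21 glycolysis list genes did. In some alternatives a few genes of low counts were not tested and have no value. The cause of the changed values was not tested. Genes with few reads in most libraries were filtered, so little can be said of them. Whether low expression, depth or the counting left them with few reads was not tested.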

Other observations

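Some rising genes lie next to each other in the order of genes of the RefSeq table. KNG1 and HRG are neighbours, beside AHSG and FETUB, which encode fetuin-A and fetuin-B. Neither AHSG nor FETUB was tested, AHSG for lack of counts. The next gene on the other side, EIF4A2, a translation factor, was at 707, 726, 810 and 691 CPM in HSA/d5 and 1182, 1502, 1183 and 1211 CPM in Fet-A/d5, above in all libraries, with a log2 fold change of 0.79 (edgeR adjusted p = 1.76e-07). RFC4, which follows, had a log2 fold change of -0.08 (edgeR adjusted p = 0.426). COL4A3 and COL4A4 are neighbours as well. Beside DUOX1, SHF, an adaptor protein, rose by 1.16 (edgeR adjusted p = 3.84e-06), while DUOXA1, the maturation factor of DUOX1, had a log2 fold change of 0.99 (0.119), and 1.47 without HSA/d5 replicate 3 (0.0318, range over the alternatives 0.0318 to 0.278). DUOX2, a related oxidase, had 1.26 (edgeR adjusted p = 0.0677), with 1.18 in the fit with the replicate block (0.0249). DUOX2 also passed with DESeq2 (adjusted p = 0.0417), without HSA/d5 replicate 3 (0.00702) and without Fet-A/d5 replicate 4 (0.0341), within a range of 0.00702 to 0.183. GATM, a creatine synthesis enzyme encoded 3 genes before DUOX1, fell by 1.92 (edgeR adjusted p = 0.0214), a call lost without HSA/d5 replicate 1 (-1.22, adjusted p = 0.137), without Fet-A/d5 replicate 3 or 4 (0.0554 and 0.0634) and in a fit of only these 8 libraries (0.0693), within a range of 1.75e-06 to 0.137. These genes were chosen after the values of their neighbours were seen.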
